A study of Mus musculus with 12 samples.

Results

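Shared peaks in short internal exons are regions enriched for N6-methyladenosine (m6A) that were called in UV-exposed and in control mouse skin and lie at exons under 400 bp in the middle of a gene. A member is a UV-arm peak of at most 10000 bp that overlaps a control-arm peak on the same strand and whose midpoint falls in a merged exon of its gene that is neither the first nor the last and is under 400 bp long. The rule found 306 members in 294 genes, which is 0.712% of the 42989 deposited peaks and 2.15% of the 14219 shared peaks up to that width. A further shared peak at a short internal exon was wider than 10000 bp and was left out. Skin labelled as UV light treated was compared with skin labelled as control, with 3 samples in each group, and an IP library (RNA pulled down with an m6A antibody) and an input library were made from each sample. No source used here gives the strain, the age, the UV dose or the collection time. The series concerns the m6A writer subunit KIAA1429, the microfibril protein MFAP4 and collagen synthesis in photoaging.

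m6A is a methyl group that a nuclear writer complex adds to adenosines within a short sequence context, of which GGACT is a well known form, while the RNA is being made. Reader proteins bind the mark and alter splicing, export, translation and decay of the transcript. In mammalian mRNA the mark is concentrated near stop codons, in last exons and in unusually long internal exons, and exon junction complexes, which are deposited near splice junctions, are known to keep the writer away from nearby RNA. Short internal exons are therefore the part of a transcript where m6A is known to be sparse.

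Letters of the RNA could be read for the 37 members that a RefSeq gene start window (GRCm38.p6, the build of the files) touches, 3 of them in full. GGACT was searched on the strand of the peak in those covered bases and was found in 5 of the 37 members (13.5%). Its reverse complement AGTCC was found in 6. Of 32851 RefSeq start windows shortened to the median covered length of 101 bases, 10.4% held GGACT and 9.29% held AGTCC. The stretches below are shown because they give the 4 sites that have 10 bases of covered peak on either side. Each is 25 bases, written 5′ to 3′ on the strand of the peak, with GGACT in capitals.
Ptp4a2, chr4:129820399-129820423, + strand: gcagcaagacGGACTcgtggacacg
Sgms1, chr19:32388472-32388496, - strand: gctccgccgcGGACTgggcatgctc
Wdtc1, chr4:133339298-133339322, - strand: gcgcagtgcgGGACTtctcctgggt
Ydjc, chr16:17144789-17144813, + strand: aatgcagtgtGGACTaggccgcatc
The first 3 stretches lie inside the short exon of their member, whereas the stretch of Ydjc lies in the peak upstream of its short exon. The Ydjc stretch was read from the start window of another RefSeq gene, LOC115488656, and the first 3 from that of their own gene. The match is a description of the letters and does not place a methylated base.

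The skin identity of the input libraries was checked with 4 keratinocyte markers (Krt5, Krt14, Krt1 and Krt10), whose summed level was 61300, 39800 and 57500 CPM (counts scaled to a common library size) in UV samples 1 to 3 and 27000, 12500 and 43400 CPM in control samples 1 to 3. The 4 fibroblast markers summed to 3550 to 4240 CPM in UV samples and 5090 to 6110 CPM in control samples. The groups overlapped for keratinocytes and not for fibroblasts. Other sums that did not overlap were those of 3 T cell markers at 0.998 to 1.36 CPM in UV samples and 7.18 to 9.3 CPM in control samples, 3 macrophage markers at 24.4 to 26.5 CPM in UV samples and 30.8 to 41.2 CPM in control samples, 2 sebocyte markers at 1400 to 1610 CPM in UV samples and 670 to 1000 CPM in control samples, and 2 endothelial markers at 47.4 to 58.2 CPM in UV samples and 37.3 to 42.3 CPM in control samples. The sum of 3 skeletal muscle markers did not overlap either. It was 837 to 2470 CPM in UV samples and 2910 to 6800 CPM in control samples. These marker sums moved with condition, and their part in the differences below was not tested. In whole skin, fewer cells of a type and less RNA per cell cannot be told apart. Reads in genes numbered 24126662 to 92163619 per library, and the median member held 126 to 328 input reads and 250 to 883 IP reads per library.

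The exons of the members were short but not evenly so. Exon length ran from 26 to 397 bp with a median of 269 bp, and 126 members (41.2%) sat in exons of 300 bp or more. Another 81 were in exons of 200 to 299 bp, 99 in exons under 200 bp and 18 of these in exons under 100 bp. Among internal exons of genes tested for expression, a shared peak was centred on 0.0389% of exons under 100 bp (18 of 46259, 95% interval 0.0231% to 0.0615%). The share was 0.262% at 200 to 249 bp, 1.39% at 300 to 349 bp and 3.06% at 350 bp or more and under 400 bp (77 of 2518, 95% interval 2.42% to 3.81%). Over all internal exons under 400 bp the share was 0.209% (306 of 146590), against 11.7% of those of 400 bp or more (2175 of 18639). A longer exon offers more positions for a peak midpoint, so the same counts were set against exon length. Per megabase of internal exon there were 5.43 exons with a shared peak below 100 bp, 11.9 at 200 to 249 bp, 81.9 at 350 bp or more and under 400 bp, 160 at 600 to 999 bp and 55.4 at 2000 bp or more. Below 400 bp there were 15.0 exons with a shared peak per megabase, against 94.3 at 400 bp or more. An exon counts once however many shared peaks it holds.

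**Figure D1:**
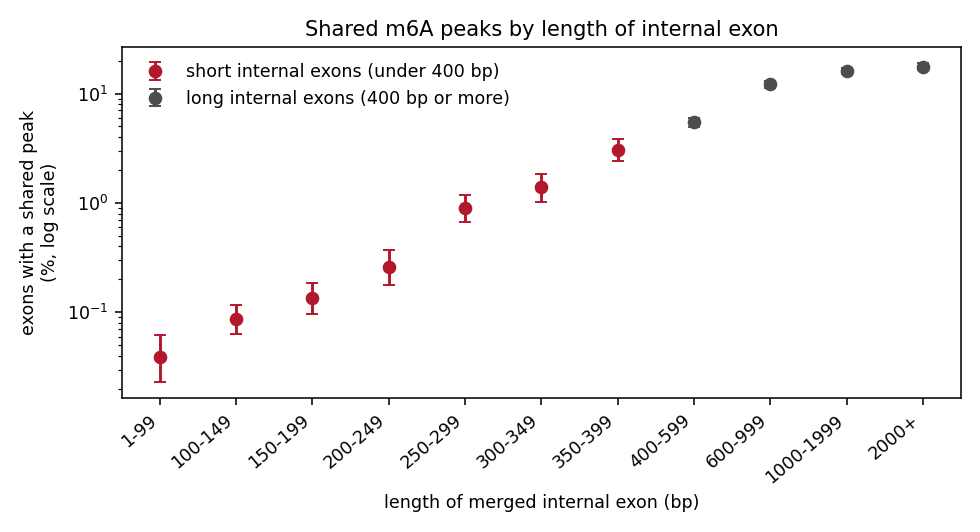
Percentage of merged internal exons that hold the midpoint of a shared peak (log scale), by exon length in bp, with exact 95% intervals; red marks exons under 400 bp and grey longer ones. The share lies at 0.0389% for exons under 100 bp and at 17.6% for exons of 2000 bp or more.

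Most members were compact regions within one exon. Peak width had a median of 211 bp and ran from 60 to 9747 bp. A total of 190 members touched 1 exon and lay wholly inside it, with a median width of 180 bp in exons of median 314.5 bp, and covered a median 57.5% of the exon. The other 116 members crossed splice junctions and had a median width of 921 bp, of which a median 57.5% was intronic. In these the exon under the midpoint held a median 52.7% of the exonic bases, and 24 of them also touched a long internal exon, 20 the first exon and 13 the last. Their counts can therefore hold reads of neighbouring exons or introns. The midpoint lay a median 88.5 bases from the nearer exon end and within 100 bases of it in 178 members. Members were spread along their genes, with a median exon rank of 7 in genes of median 17 merged exons, 55 in the second exon and 30 in the exon before the last. The control-arm peak had its midpoint in the same exon for 197 members, and 30 pairs of intervals were identical. Any overlap sufficed, and 52 members shared under 10% of the joint span with their control-arm peak. The width limit applied to the UV-arm peak only, and control-arm peaks were up to 78170 bp wide.

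**Figure D2:**
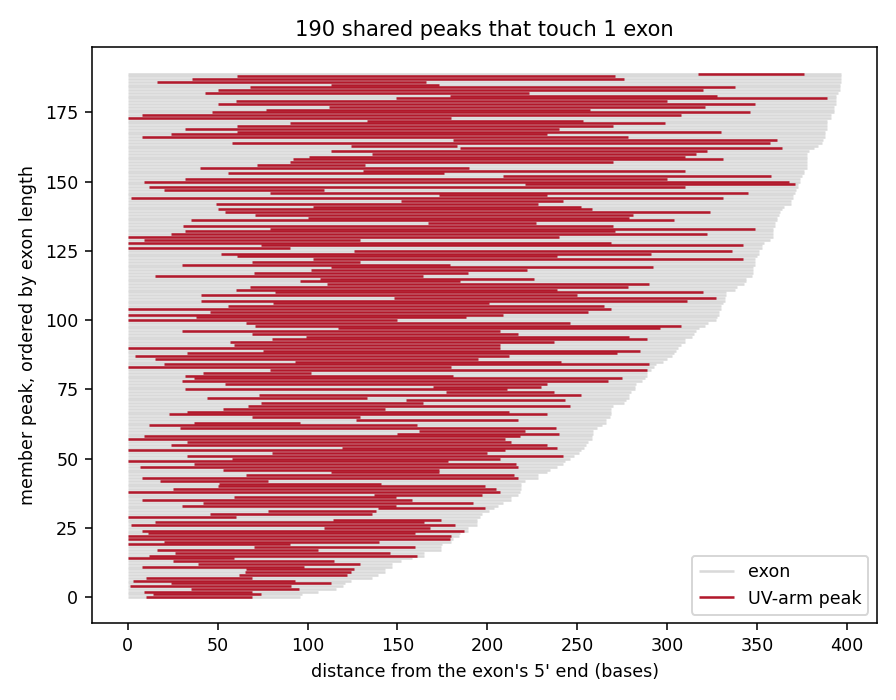
The 190 members that touch 1 exon, one per line and ordered by exon length, with the exon in grey and the UV-arm peak in red; the horizontal axis gives the distance in bases from the exon's 5′ end. The peaks covered a median 57.5% of their exon.

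Overlap with other genes was rare. No other annotated gene overlapped 285 members, 10 overlapped another gene on the same strand, among them the Ncl member with the small nucleolar RNA gene Snord82, and 11 overlapped one on the opposite strand. The opposite-strand pairs included Kank3 with Rps28 and Mid1ip1 with Gm14493. Since the use of strand in counting is not given, reads of those opposite-strand pairs cannot be told apart. Reads of the same-strand overlaps, Ncl with Snord82 among them, cannot be told apart by strand under any counting rule.

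The members were less enriched than shared peaks elsewhere in transcripts. The median log2 IP over input of the 306 members was 0.94, 1.03 and 1.01 in UV samples 1 to 3 and 1.06, 1.15 and 1.03 in control samples 1 to 3, or 0.99 ± 0.05 in UV and 1.08 ± 0.07 in control (SD of the sample medians, n = 3 each). The 2988 shared peaks in long internal exons had 1.33 ± 0.03 in UV and 1.31 ± 0.13 in control, the 1237 in first exons 1.40 ± 0.04 in UV and 1.37 ± 0.24 in control, and the 6407 in last exons 1.48 ± 0.03 in UV and 1.42 ± 0.14 in control. In each of the 6 samples the member median lay below the medians of the other classes. All these peaks were called for being enriched, so the log2 values describe the choice and carry no test. Input level moved with class: the median was 4.53 CPM for members, 2.36 CPM for long internal, 1.61 CPM for first and 1.36 CPM for last exons. Among peaks with an input of 2 to 10 CPM, the log2 medians were 1.03 ± 0.04 in UV and 1.08 ± 0.11 in control for 120 members, against 1.24 ± 0.05 in UV and 1.25 ± 0.12 in control for long internal exons. Within the members, enrichment was lower in the shorter exons in UV samples: the mean log2 median was 0.87 in UV and 1.02 in control for exons under 200 bp, 0.96 in UV and 1.06 in control for 200 to 299 bp, and 1.11 in UV and 1.13 in control for 300 bp or more. From the shortest to the longest exons, median input was 8.28, 5.31 and 2.96 CPM and median peak width 558, 181 and 210 bp. The part of input level and width in this was not tested. At the length limit, 21 members in exons of the last 10 bp below the limit had 1.15 in UV and 1.26 in control, and 7 shared peaks in internal exons of the first 10 bp from it upward had 1.07 in both.

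**Figure D3:**
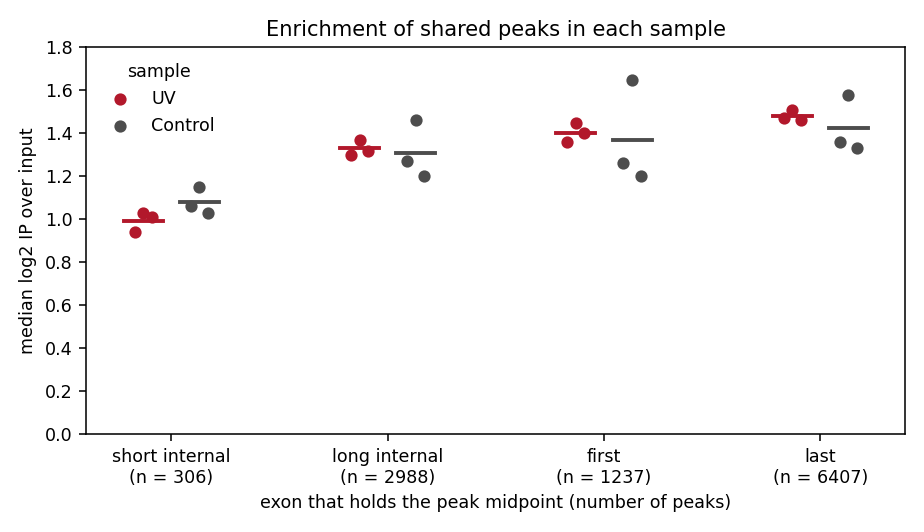
Median log2 IP over input of shared peaks by the exon that holds the midpoint; each point is 1 sample, UV in red left of control in grey, and bars are means of 3 samples. The members average 0.99 in UV and 1.08 in control, and all 6 sample medians lie below those of the other exon classes in the same sample.

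The difference was also seen within genes. In 112 genes that held a member and a shared last-exon peak, the member had the lower mean log2 IP over input in 85 (75.9%). The same held for 50 of 70 genes with a shared peak in a long internal exon (71.4%) and for 15 of 20 genes with one in a first exon. The median within-gene difference to last-exon peaks was -0.52, -0.41 and -0.36 in UV samples 1 to 3 and -0.19, -0.38 and -0.21 in control samples 1 to 3 on the log2 scale. For first exons it was 0.05 in control sample 3 and below 0 in the other samples. Against its own gene, the member was the more enriched in 287 cases and the less enriched in 19, with a median log2 difference of 0.63. Members were called for being enriched, so this last comparison describes the choice.

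Single members ranged widely. Mean log2 IP over input ran from 0.0451 to 2.28 with a median of 1.06, and 304 of 306 members were above 0 in every sample while 70 were above 1 in every sample. Metrnl, which encodes a secreted meteorin-like factor, had the highest ratio among members with at least 1 CPM in every input library. Its log2 ratios were 2.5, 2.33 and 2.23 in UV samples and 1.89, 2.48 and 2.14 in control samples, so the groups overlapped. Its peak at chr11:121707788-121708087 lies inside exon 3 of 5, which is 386 bp long. Oaz2, an antizyme that restrains polyamine synthesis, followed with log2 ratios of 2.37, 2.12 and 2.44 in UV samples and 1.84, 2.61 and 1.71 in control samples, again overlapping. Uba1, the ubiquitin-activating enzyme, had 1.89 ± 0.01 in UV and 2.01 ± 0.45 in control on the log2 scale (SD, n = 3 each). Myo10, an unconventional myosin of filopodia, had 1.87 ± 0.17 in UV and 1.97 ± 0.13 in control, Pprc1, a coactivator of mitochondrial biogenesis, 1.51 ± 0.14 in UV and 1.92 ± 0.21 in control, and Phf2, a histone demethylase, 1.75 ± 0.20 in UV and 1.67 ± 0.39 in control.

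The members with the most IP reads had mean log2 ratios between 0.58 and 1.23. The Ncl member (nucleolin, a nucleolar RNA-binding protein of ribosome synthesis) had the highest IP count over the peak, which also grows with peak width: 3146, 3793 and 3065 CPM in UV samples and 2953, 2785 and 2916 CPM in control samples. Its mean log2 IP over input was 0.94. Hdgf, a growth factor that binds chromatin, had 0.85, Srrt, which links the nuclear cap-binding complex to RNA processing, 1.23, and Itsn2, an endocytic scaffold, 1.21. The RNA-binding proteins Hnrnpc and Nono had 0.65 and 0.58. All 6 of these peaks crossed splice junctions. The Ncl counts can also hold reads of Snord82, which that peak overlaps on the same strand.

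The shortest exons belonged to peaks that ran beyond them. Eps8l1, an actin regulator, had a midpoint in a 26 bp exon, but its 274 bp peak touched 3 exons and the short exon held 13.83% of the exonic bases. Its log2 IP over input was 1.13, 1.11 and 1.22 in UV samples and 1.35, 1.36 and 1.12 in control samples. Nemf, a ribosome quality control factor, had a 50 bp exon in a peak that was 90.41% intronic, and Cd274, the immune checkpoint ligand PD-L1, a 60 bp exon in a peak that was 87.55% intronic.

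Genes with several members included Ttn with 3 and 10 genes with 2. Ttn encodes titin, the giant elastic protein of striated muscle, and its members lay at 84 bp exons numbered 187, 179 and 166 of 345. The widest of them, at chr2:76828349-76831021, had 28.4, 12.4 and 26.1 CPM in UV input and 45.8, 68.1 and 34.7 CPM in control input, so every UV sample lay below every control sample. Its log2 change was -1.15 ± 0.29 (SE) with an adjusted p of 0.0533 by edgeR's quasi-likelihood test. The summed level of 3 skeletal muscle markers was 2470, 837 and 1840 CPM in UV input and 2910, 6800 and 3460 CPM in control input, lowest in UV sample 2 and highest in control sample 2 as for Ttn, and its part in the Ttn values was not tested. The log2 IP over input of the same peak was 1.59 ± 0.06 in UV and 1.39 ± 0.27 in control (SD, n = 3 each). The paired members of Cdc37 (a kinase co-chaperone), Mdn1 (a ribosome assembly ATPase), Tln1 (talin, which links integrins to actin) and Eea1 (an early endosome tether) had mean log2 ratios of 0.52 and 0.60 for Cdc37, 0.99 and 0.97 for Mdn1, 0.74 and 0.77 for Tln1 and 1.26 and 0.86 for Eea1.

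Gene lists of skin and RNA biology were set beside the members. Chromatin regulators held 8 members in 8 genes, among them Chd3, Chd8 and Ncor1, with a median log2 IP over input of 0.78. All 40 genes of that list held a shared peak, with 178 shared peaks in all. Cytoskeletal linkers and motors held 11 members in 8 genes, among them Myh9, Myo10, Tln1 and Ttn, with a median of 0.96. That list held 125 shared peaks. Desmosome and adhesion genes held 2 members among 42 shared peaks, Dsg2 and Tjp1. The receptor list held 3 among 109, in the Wnt co-receptors Lrp5 and Lrp6, and the splicing list 2 among 52, Hnrnpc and Sf3b2. Members are 2.15% of shared peaks, so a list with few shared peaks can hold none. Lists without a member included m6A machinery with 29 shared peaks in 12 of 17 genes, exon junction complex with 7 in 4 of 9, fibrillar collagens with 17 in 13 of 20, and, by genes with a shared peak, basement membrane with 12 of 29, elastic fibre and matrix glycoproteins with 13 of 26, the p53 response with 18 of 27 and keratinocyte differentiation with 17 of 28. The others were ubiquitin ligases and deubiquitinases with 18 of 23, adipocyte and sebocyte lipid genes with 14 of 23, immune cells with 5 of 24 and clock genes with 11 of 18. No member of a list was called in the input or the IP comparison, where 3.21% and 1.72% of all peaks were called, so few calls or none would be met in lists of this size. The lists were written with results of these data known, so the counts are a description.

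The change of enrichment between UV and control asks whether IP over input differed at the same site. No member was called (0 of 306; background 0 of 41537 peaks, 0.0%) by edgeR's quasi-likelihood test on 12 libraries, and the lowest adjusted p among members was 0.593. At an unadjusted p under 0.05 there were 19 members, 13 lower and 6 higher in UV (6.21%, against 7.68% of all peaks). DESeq2 called 0 members and 8 of all peaks. Neither fit used the pairing of IP with input of one sample, which the fit with a block keeps. The enrichment test missed many of the smaller changes put into simulated data, so a count of 0 does not show that enrichment was equal. With the sample shared by IP and input as a block, 3 members were called, all lower in UV (0.98%; background 0.421% in all, 0.224% higher and 0.197% lower). In the authors' deposited table no member had an FDR below 0.05, the lowest being 0.704, while 45 of all peaks did.

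The 3 members called with the block were Ncl, Safb and Phf12. The Ncl peak crosses splice junctions and overlaps Snord82 on the same strand, so its counts can hold reads of Snord82. The part of such reads in the Ncl change was not tested. Safb encodes a nuclear scaffold and RNA-binding protein and Phf12 a subunit of a histone deacetylase corepressor. Ncl had log2 IP over input of 0.70, 0.83 and 0.68 in UV samples and 1.32, 0.98 and 1.12 in control samples, with no overlap. Its change was -0.40 ± 0.14 without the block and -0.41 ± 0.08 with it (log2, SE; adjusted p 0.595 and 0.0178, edgeR). Safb had 0.66, 0.83 and 0.68 in UV samples and 1.17, 1.08 and 1.11 in control samples, and Phf12 0.71, 0.88 and 0.81 in UV samples and 1.40, 1.56 and 1.15 in control samples, neither overlapping. The blocked log2 changes were -0.39 ± 0.09 for Safb (adjusted p 0.0384, edgeR) and -0.57 ± 0.13 for Phf12 (adjusted p 0.0466, edgeR). The other members with the smallest p-values were Epc1, a histone acetyltransferase subunit, with a log2 change of 0.86 ± 0.27, Hcfc1, a transcription co-regulator, with 0.90 ± 0.34, and Gigyf1, which acts with translational repressors, with -0.43 ± 0.16, and their adjusted p-values were 0.593 to 0.616 in edgeR. This Epc1 member lay in exon 16 of 17. The other Epc1 member, in exon 12, had a change of opposite sign, -0.37 ± 0.21 (adjusted p 0.707, edgeR).

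**Figure D4:**
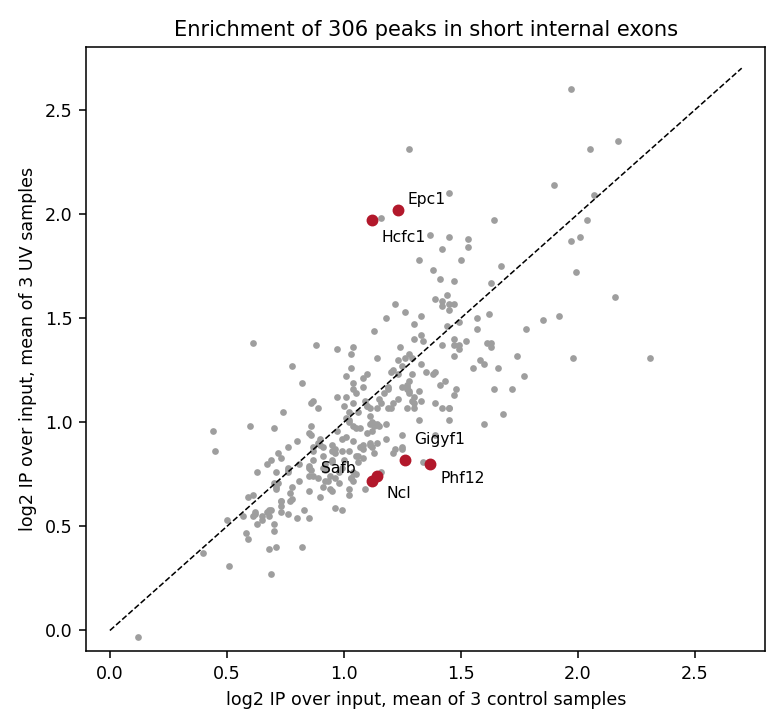
Mean log2 IP over input of each of the 306 members in 3 UV samples (vertical) against 3 control samples (horizontal), with the line of equality dashed; the 6 members with the smallest interaction p are red. Ncl, Safb, Phf12 and Gigyf1 lie below the line and Epc1 and Hcfc1 above it.

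The sign of the members' median change depended on scaling, and its distance from the median of all peaks hardly did. The median log2 change was -0.09 for members and 0.04 for all peaks, and 65.7% of members but 45.4% of all peaks were below 0. UV samples lay wholly below control samples in IP over input for 51 members (16.7%; background 8.72%) and wholly above for 8 (2.61%; background 9.67%). With library sizes alone the member median was 0.01, against 0.13 for all peaks, which that scaling moved by 0.09, and the counts were 17 below (5.56%, against 4.55% of all peaks) and 28 above (9.15%, against 15.3%). The median for long internal exons was 0.01 and for last exons 0.05 with TMM factors.

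Input reads in the peak regions were compared next, which for peaks that cross splice junctions include neighbouring exons and may include introns. Of 302 members tested, 12 were higher and 1 was lower in UV input (13 called, 4.3%; background 3.21% in all, 2.04% higher and 1.17% lower, edgeR adjusted p under 0.05), and all 13 had the same sign in the IP libraries. UV samples lay wholly above control samples for 65 members (21.2%; background 11.9%) and wholly below for 29 (9.48%; background 13.3%). The median log2 change was 0.03 for members and -0.06 for all peaks. With library sizes alone, which moved the median of all peaks by -0.12, 10 members were called, 6 higher and 4 lower. The calls moved with those over all peaks, which numbered 1188 with every sample. Without control sample 1 or UV sample 1 no member was called, where 161 and 107 of all peaks were. Without UV sample 2 there were 2 members among 206 called peaks, without UV sample 3 there was 1 among 272, and without control sample 2 there were 21 among 2156.

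Trpv6, an epithelial calcium channel, had 8.77, 8.04 and 9.86 CPM in UV input and 4.42, 4.39 and 5.88 CPM in control input, with all UV samples above all control samples. Its input rose by 0.85 ± 0.15 on the log2 scale (adjusted p 0.016), its IP by 0.71 ± 0.10 (adjusted p 0.00628) and its whole gene by 0.64 ± 0.10 (adjusted p 0.0122), all by edgeR. Ncl had 1939, 2131 and 1919 CPM in UV input and 1186, 1411 and 1339 CPM in control input, a rise of 0.61 ± 0.10 (adjusted p 0.0125, edgeR), while its IP changed by 0.21 ± 0.11 (adjusted p 0.375, edgeR). These Ncl counts can hold reads of Snord82, whose part was not tested. The other named members that rose were Nol3, an apoptosis repressor, at 0.88 ± 0.21, Mid1ip1, a regulator of fatty acid synthesis, at 0.75 ± 0.15, and Arhgdib, a GTPase regulator of blood cells, at 0.58 ± 0.12. Heg1, a junctional receptor of endothelium, rose by 0.52 ± 0.12, Sfr1, a homologous recombination factor, by 0.51 ± 0.11, and Bex3, a neurotrophin receptor adaptor, by 0.49 ± 0.10. Their adjusted p-values in edgeR ran from 0.0283 to 0.048. The Sfr1 value is that of the member starting at 47733631, and the other Sfr1 member, starting at 47732654, was not called. Each of the 9 named input calls, that of Slc39a10 included, was lost without UV sample 1 and without control sample 1. The calls of Heg1 and Bex3 were lost under 7 of 11 alternatives, library sizes alone and the replicate block among them, with adjusted p up to 0.171 for Heg1 and 0.141 for Bex3. The whole Heg1 gene had a log2 change of 0.20 (adjusted p 0.162, edgeR). The endothelial marker sum given above was also higher in UV, whereas the T cell and macrophage sums were lower in UV where Arhgdib rose. The part of the marker sums in these changes was not tested. Slc39a10, a zinc importer, was the member that fell: it had 2.29, 3.94 and 2.76 CPM in UV input and 5.57, 5.96 and 4.54 CPM in control input, a log2 change of -0.82 ± 0.20 (adjusted p 0.048, edgeR). The called members outside the naming rule were Aatf, Ftsj3, Slc2a5 and Ydjc, named after their values were seen. In 4 of the 13, the whole gene was also called in input.

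**Figure D5:**
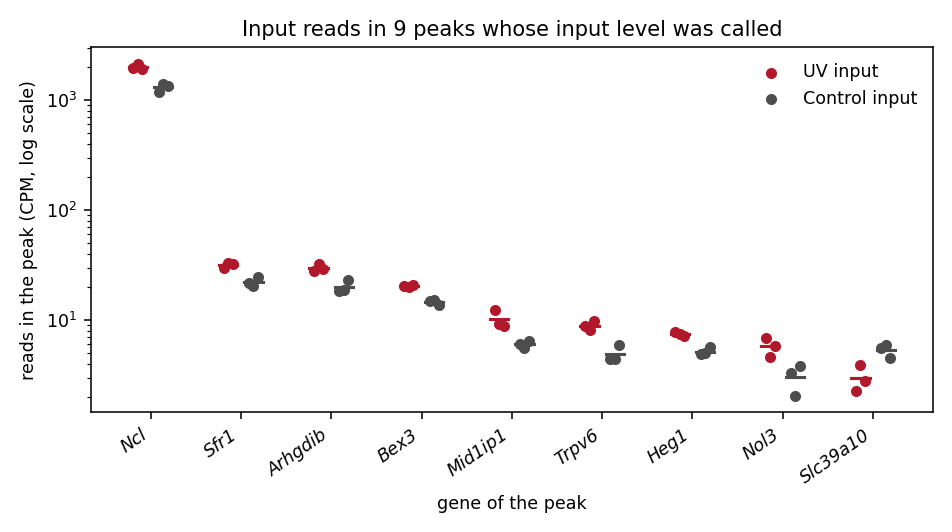
Input reads in CPM (log scale) of the 9 named members called in the input comparison; points are samples, UV in red left of control in grey, bars are means of 3. All UV samples lie above control for 8 genes and below for Slc39a10.

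In the IP libraries 3 members were called, all higher in UV (0.98%; background 1.72% in all, 1.07% higher and 0.655% lower). UV samples lay wholly above control samples for 40 members (13.1%; background 11.4%) and wholly below for 40 (13.1%; background 9.57%). Ydjc, a predicted carbohydrate deacetylase, had 6.08, 4.54 and 4.87 CPM in UV IP and 1.92, 2.15 and 2.13 CPM in control IP, a rise of 1.32 ± 0.17 on the log2 scale (adjusted p 0.00299, edgeR). Its input was 1.38, 1.79 and 1.84 CPM in UV and 0.486, 0.244 and 0.657 CPM in control, a log2 rise of 1.77 ± 0.30 (adjusted p 0.0140, edgeR), and its log2 IP over input, 1.6 ± 0.44 in UV and 2.16 ± 0.69 in control, overlapped. Kank3, an ankyrin-repeat protein of the cell cortex, had 7.16, 6.91 and 7.68 CPM in UV IP and 5.23, 4.47 and 3.54 CPM in control IP, a rise of 0.70 ± 0.16 (adjusted p 0.0483, edgeR). Leaving out any sample ended the Kank3 call, with adjusted p up to 0.182. Without control sample 3 there were 15 called members, 5 higher and 10 lower, among 1560 called peaks, against 704 called peaks with every sample. DESeq2 called 13 members, 7 higher and 6 lower, among 1500 peaks. Splits under other scalings were 3 higher and 2 lower with library sizes alone and 4 higher and 2 lower with TMM over the peaks.

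Among the 294 host genes, 13 were higher and 4 lower in UV input (17 called, 5.78%; background 6.1% in all, 3.48% higher and 2.62% lower). With the median of all genes moved by -0.12, library sizes alone gave 2 higher and 10 lower host genes among 1474 called genes, against 1476 called genes in the reported fit. Without UV sample 1 no host gene was called among 219 called genes, without UV sample 2 there was 1 among 268, and without UV sample 3 there was 1 among 331. Without control sample 1 there were 3 among 452, and without control sample 3 there were 28 among 2057. The genes that fell were Ism2, Dok2, Ache and Maz, with log2 changes from -1.16 to -0.39. Those that rose included Slc2a5, the fructose transporter, at 0.86, Dcst1 at 0.69, Kank3 at 0.66 and Trpv6 at 0.64. These genes were named after their values were seen.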

How the data were processed

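The data were 12 libraries from mouse skin, an m6A antibody-enriched (IP) and an input library from each of 3 UV-exposed and 3 control samples. Both deposited tables held raw read counts made by the authors, per the file headers, one per gene and one per called peak. The peak table also gave the authors' log2 fold change of enrichment, p-value and FDR for each peak, per the file headers. Per the submitters' processing notes, STAR 2.5.3a and GRCm38 were used. The peak caller, the counting rule, the use of strand and the test behind the authors' p-values were not stated in any source used here. Whether reads of a peak that spans an intron were counted over its whole interval is likewise not stated.

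Exons of each gene were merged over all its transcripts, so a retained intron lengthens an exon. Peak starts counted from 0, since adding 1 matched 1788 of them to a merged exon start and no other offset matched more than 80, and positions are printed counting from 1. Library sizes were reads in genes (24126662 to 92163619 per library) with TMM factors from the gene table. All peaks and all genes were fitted with the quasi-likelihood test of edgeR 4.0.16 in R 4.3.3 after filterByExpr, adjusted by Benjamini-Hochberg over all features tested and called below 0.05. The steps were tested on simulated data: directions and sizes were recovered, as were the larger changes, but the enrichment test missed many of the smaller ones, and the requirement to recover those was dropped after this was seen. IP over input is the log2 ratio of normalised counts with a prior count of 2. Alternatives were DESeq2 1.42.0, library sizes alone, TMM over the peak counts, no low-count filter, a replicate block, and leaving out each sample. Intervals of shares are exact Clopper-Pearson intervals at 95% and cover counting error only.

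The members and gene lists were chosen with earlier results of these data known. Genes were named by rule: the 6 smallest interaction p-values, called peaks with groups that did not overlap and at least 2 CPM (up to 8 per direction for input and 6 for IP), the 6 highest IP levels, the 6 highest ratios among peaks with at least 1 CPM in every input library, the 3 shortest exons, the 5 genes with most members, and up to 3 members per list. Departures from group means over 41273 peaks correlated at 0.128 to 0.258 between IP and input of one sample number and at -0.239 to -0.034 between different numbers, so the numbers pair IP with input. For UV with control the same numbers gave -0.057 to 0.058, so no pairing of those samples by number was seen. Replicates of a group differed beyond counting noise, by chi-square values of 15.57 to 74.1 for each degree of freedom over peaks, so each counts as 1 sample. The labels do not say if samples came from separate animals, so p-values measure the spread between these samples, which may be technical.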

Additional observations from a re-analysis of the deposited data

Results flagged for a closer look

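The change of IP over input differed between UV and control for 3 members when the sample was a block shared by IP and input. The blocked log2 changes were -0.41 for Ncl, -0.39 for Safb and -0.57 for Phf12, each lower in UV in all 3 samples than in any control sample. Without the block none of them was called by edgeR, with adjusted p of 0.595 for Ncl and 0.593 for Safb and Phf12. The input of Ncl rose by 0.61 in UV on the log2 scale, and the input of Safb and Phf12 had log2 changes of 0.32 and 0.35 (adjusted p 0.0759 and 0.116, edgeR). The Ncl counts can hold reads of Snord82, whose part was not tested.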

How the results depend on the processing

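The count of members called for a change of enrichment was 0 in the reported fit and 3 with the replicate block of the sample, and 0 with every other setting tried, library sizes alone, DESeq2, no filter, TMM over the peaks and each sample left out. Of these fits, only the one with the block kept the pairing of IP with input. For input, 13 members were called, and leaving out 1 sample gave 0 to 21. For IP, 3 were called, with 13 by DESeq2 (of 1500 called peaks), 6 with TMM over the peaks (of 772), 5 with library sizes alone (of 761) and 2 to 15 with 1 sample left out. For host genes, 17 were called, with 37 by DESeq2, 26 without the filter, 3 with the number as a replicate block and 0 to 28 with 1 sample left out. The block of the number, by which no pairing of UV with control was seen, gave 9 members for input and 3 for IP. The median log2 IP over input was 0.84 in UV and 0.83 in control with library sizes alone, against 0.99 in UV and 1.08 in control; with 1 sample left out it was 0.98 to 1.02 in UV and 1.04 to 1.11 in control. Restricting exons to under 200 bp left 99 members. The cause of these moves was not tested. No change of a member named by rule in the interaction, input or IP comparison reversed its sign under any alternative. The same held for the host genes of the members named by rule for input. Other members and host genes were not checked for this. The subset with an input of 2 to 10 CPM and the non-overlap counts with library sizes alone were chosen after seeing the data. Depth limits 20 members, which had under 10 reads in at least 1 input library.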
